A study of Mus musculus with 2 samples.

Results

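The microRNAs miR-21, miR-199 and miR-214, known from fibroblasts and other mesenchymal cells of the heart, were followed in small RNA from cardiac mitochondria of mice. The samples were 1 library from the heart of a control and 1 from a heart treated with STZ (streptozotocin, which kills the insulin-producing beta cells and so gives mice diabetes). Both were mitochondrial preparations of Mus musculus heart without a stated genetic change. The sources used here give no strain, age, dose, time after STZ or pooling of animals. The study's title concerns Ago2, the protein that holds miRNAs on their targets, in diabetic cardiomyopathy and mitochondrial translation, and its design compares the miRNA profiles of the STZ and control hearts.

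Members were chosen by name. Of the 1018 entries listed in each library, 11 stood under miR-21 (or miR-21a, its mouse name), miR-199a, miR-199b or miR-214, on either arm. They make up 7 mature miRNAs of 771, because human-named and mouse-named entries of a miRNA were taken as 1, and because miR-199a-3p and miR-199b-3p were counted once. The control library held 508182 reads and the STZ library 706860, and levels are given in RPM, that is, for a library scaled to 1000000 reads. A single read was worth 1.97 RPM in control and 1.41 in STZ. With 1 library in each group no difference had a replicate check and no p-value was possible, so "higher" and "lower" compare these libraries only. For the same reason the 95% intervals reflect the counting error of reads alone and hold no spread between animals or preparations. No molecular identifiers are described, and reads copied by PCR need not be separate molecules. Taken as counts of molecules, the intervals may therefore be too narrow.

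A miRNA gene is transcribed into a hairpin whose 5p and 3p arms are cut out, and usually one arm is kept by an Argonaute protein while the other is degraded. The kept strand pairs with messages mainly through its seed, the bases 2 to 8. In the heart miR-21 is abundant in fibroblasts, where work in mice tied it to growth signalling through its target Spry1, and in hypertensive rats it was described inside mitochondria as raising translation of the mitochondrial message for cytochrome b. The miR-199a and miR-214 genes are carried together by the noncoding RNA Dnm3os, which is active in mesenchyme. In rodents miR-199a-3p was described as driving division of cardiomyocytes, miR-199a-5p as lowering the hypoxia factor Hif1a, and miR-214-3p as protecting against calcium overload through the exchanger gene Slc8a1.

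The mouse mature sequences from RefSeq (build GRCm38.p6) are shown because the arms and the sharing of reads are what the values turn on. Of 8 mature names sought, 7 matched, all but miR-199b-5p. Capitals mark the seed.
miR-21a-5p: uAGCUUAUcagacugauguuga
miR-21a-3p: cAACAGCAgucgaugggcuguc
miR-199a-5p: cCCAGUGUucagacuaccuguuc
miR-199a-3p: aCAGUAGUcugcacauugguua
miR-199b-3p: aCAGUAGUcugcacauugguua
miR-214-5p: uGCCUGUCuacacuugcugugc
miR-214-3p: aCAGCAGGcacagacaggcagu

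miR-199a-3p and miR-199b-3p were equal at all 22 bases, so reads cannot tell their genes apart. The seeds of the miR-199 and miR-214 3p arms are close but not the same. Counted from the 5′ end, the first 8 bases of miR-214-3p differ from those of miR-199a-3p by U5C and U8G. The other mature sequences shown each had a seed of their own, and miR-199b-5p, which had no match, was not compared. In the part of the RefSeq table that was searched, which left a chromosome out, miR-21c shared the seed of miR-21a-5p and miR-761 that of miR-214-3p. Neither had an entry in the files.

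The hairpins show the arms of each gene, with the annotated mature strands in capitals.
Mir21a: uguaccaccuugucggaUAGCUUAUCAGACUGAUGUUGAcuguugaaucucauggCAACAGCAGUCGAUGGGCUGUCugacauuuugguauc
Mir199a-2: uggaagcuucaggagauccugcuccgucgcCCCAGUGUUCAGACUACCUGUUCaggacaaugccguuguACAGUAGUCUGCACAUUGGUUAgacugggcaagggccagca
Mir199b: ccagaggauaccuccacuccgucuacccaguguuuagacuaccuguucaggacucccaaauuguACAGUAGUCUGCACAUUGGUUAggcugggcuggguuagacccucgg
Mir214: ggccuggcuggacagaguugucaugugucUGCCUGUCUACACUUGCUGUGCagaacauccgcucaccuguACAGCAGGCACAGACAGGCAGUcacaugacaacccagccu

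The stretch of the Mir199b hairpin closest to miR-199a-5p differed from it at 1 of 23 bases, C10U counted from the 5′ end of miR-199a-5p. That base lies outside the seed. No source used here gives the mismatches the authors allowed, so it is not known how cleanly the miR-199a-5p and miR-199b-5p entries separate. Coordinates below are those of GRCm38, not of the build used by the authors (GRCm39). Mir21a lies at chr11:86584067-86584158 on the minus strand, inside a UTR exon of the protein-coding gene Vmp1 on the same strand. Mir199a-2 (chr1:162217814-162217923) and Mir214 (chr1:162223368-162223477) lie 5444 bases apart on the plus strand, both in exons of Dnm3os and in an intron of Dnm3, which runs on the other strand. Mir199a-1 (chr9:21496495-21496564, minus strand) lies in an intron of Dnm2 and Mir199b (chr2:32318460-32318569, plus strand) in an intron of Dnm1, each against the direction of its host. All 3 miR-199 genes thus lie opposite a dynamin gene. The files do not say from which of them a miR-199 read came.

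By deposited name the members were hsa-miR-21-5p, hsa-miR-21-3p, hsa-miR-199a-3p, hsa-miR-199b-3p, hsa-miR-199a-5p, hsa-miR-199b-5p, hsa-miR-214-3p and hsa-miR-214-5p, with mmu-miR-199b-5p, mmu-miR-21a-5p and mmu-miR-21a-3p. They differed more among themselves than between the libraries. Summed, they took 1.40% of control reads (7126 in number, with a Wilson 95% interval of 1.37 to 1.43) and 1.28% of those from STZ (9053 in number, 1.25 to 1.31). The ratio of STZ to control was 0.913 (exact 95% interval 0.885 to 0.942). miR-21-5p alone gave 72.7% of these reads in control and 69.4% in STZ, and miR-199-3p a further 20.6% and 22.4%. The order of levels was miR-21-5p, miR-199-3p, miR-199a-5p in both libraries. The next places were exchanged, with miR-199b-5p above miR-214-3p in control and below it in STZ. In the control the Poisson intervals of these last members did not overlap (180 to 263 and 106 to 172 RPM), whereas in the STZ library they did (148 to 212 and 180 to 249 RPM). In such bulk material fewer cells of a type and less RNA per cell cannot be told apart.

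**Figure D1:**
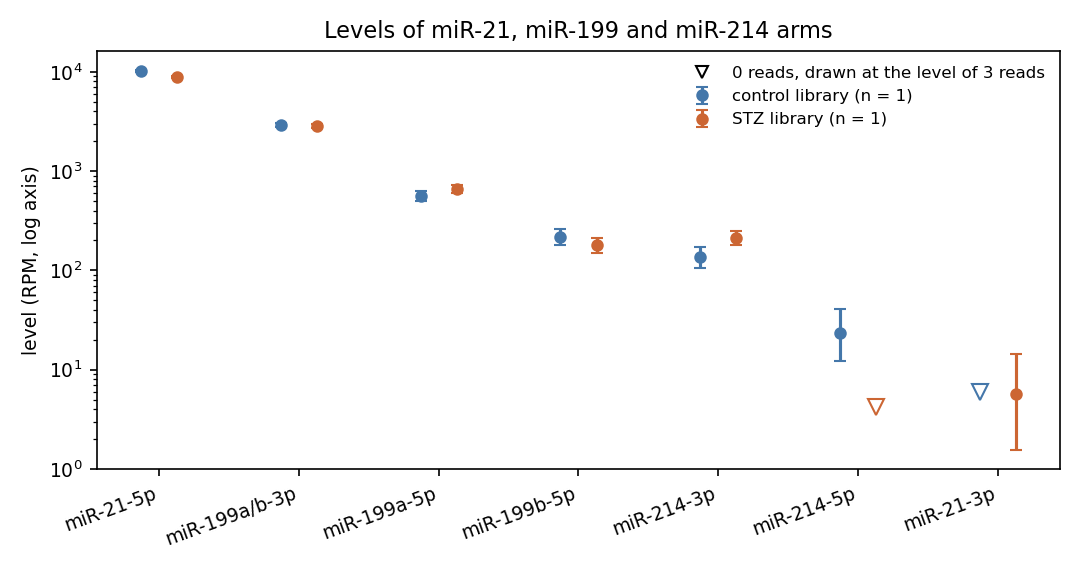
Level of each mature miRNA in RPM on a log axis, with the control library in blue and the STZ library in orange; bars are exact Poisson 95% intervals and open triangles stand for 0 reads, drawn at the level of 3 reads. The levels run from about 10189 RPM for miR-21-5p in the control down to 0, and miR-214-5p and miR-21-3p each have reads in 1 library only.

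Of the 7 mature miRNAs, 6 averaged 10 RPM or more, and of these, on log2(RPM + 1), 0 stood 2-fold or more above their control level in STZ and 1 stood as far below it. Over all 298 named miRNAs at that level, 17.1% were higher, 17.8% lower and 34.9% apart in either direction, so a count of 1 in 6 was no more than the background. The member that was lower, miR-214-5p, passed the minimum through its control reads alone. All 5 members that averaged 100 RPM or more were within 2-fold, where 8.84% of 147 miRNAs were apart.

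**Figure D2:**
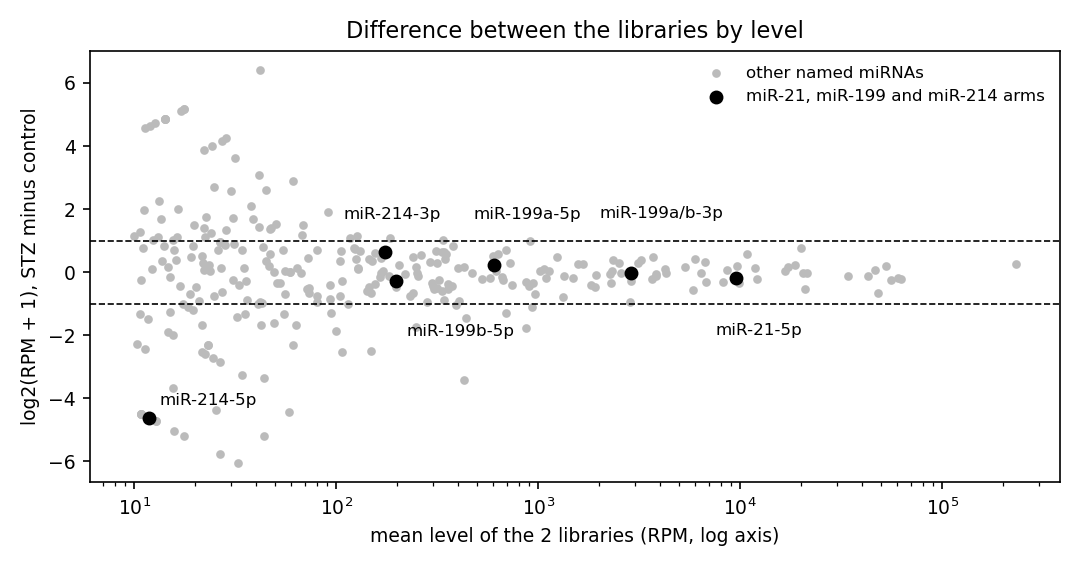
Difference in log2(RPM + 1), STZ minus control, against the mean level of the libraries (RPM, log axis) for the 298 miRNAs that averaged 10 RPM or more; black points are members and dashed lines mark a 2-fold difference. The members between 174 and 9539 RPM sit within the lines, and miR-214-5p lies at -4.62 among other miRNAs of few reads.

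miR-21-5p (hsa-miR-21-5p), the kept arm of miR-21, had 5178 reads in control (10189 RPM, Poisson interval 9914 to 10471) and 6283 in STZ (8889 RPM, 8670 to 9111). It was slightly lower in the STZ library, with intervals that did not overlap. The ratio was 0.872 (0.841 to 0.905) and the log2 fold -0.20. Among all 263 miRNAs that had 20 reads or more in total, 33.5% had an interval below 1, 31.9% one above 1 and 34.6% one that included it. Among members, these numbers were 1, 2 and 2 of 5. Of those with 1000 reads or more in total, 28 of 64 other miRNAs (43.8%) also had an interval below 1, and 22 of the 64 had a lower ratio than miR-21-5p. By level it ranked 20th of 771 in the control, between miR-22-3p and miR-486-5p, and 21st in the STZ library, where it did not differ beyond counting error from miR-26b-5p below it (8787 RPM). Closest to it in the ratio, among those 64, were let-7b-5p (0.872), miR-133a-3p (0.866) and miR-23b-3p (0.866), a likeness that rests on 1 ratio between 2 libraries.

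miR-21-3p, the arm usually degraded, had 0 reads in the control, which allows up to 5.90 RPM at a limit of 3 reads, and 4 reads in the STZ library (5.66 RPM, interval 1.54 to 14.5). Its STZ level was under that limit, so no difference was detectable at this depth. The lower bound of the exact ratio interval was 0.475. Both mouse-named entries of miR-21a were at 0 in both libraries, and the reads of this mouse miRNA stood under its human name.

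miR-199-3p, the more abundant arm of miR-199, had nearly the same level in the libraries. The entry hsa-miR-199a-3p held 1471 control and 2028 STZ reads, and hsa-miR-199b-3p 1470 and 2022, so the names differed by 1 read and by 6 reads. Counted once, its level was 2895 RPM (2749 to 3046) in control and 2869 RPM (2746 to 2997) in STZ, rank 39 in each. The ratio was 0.991 (0.926 to 1.06), which includes 1, as in 12 of 64 other miRNAs (18.8%) with at least 1000 reads. None of those 64 had a ratio nearer to 1 on the log2 scale. The nearest were miR-378a-3p (0.986), miR-99b-5p (0.983) and miR-191-5p (0.982). Its neighbours by level in the control, let-7c-5p (3082 RPM) and miR-30b-5p (2816 RPM), did not differ from it beyond counting error. The files do not show whether each read was counted under both names or divided between them, and in the second case the level of miR-199-3p would be the sum of the entries.

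The 5p arms of miR-199a and miR-199b had ratios on either side of 1. miR-199a-5p (hsa-miR-199a-5p) had 285 reads in control (561 RPM, 498 to 630) and 462 in STZ (654 RPM, 595 to 716), a ratio of 1.17 (1.003 to 1.36) and a log2 fold of 0.22. Its levels were close, and their Poisson intervals overlapped. miR-199b-5p had 111 and 126 reads (218 RPM, 180 to 263, and 178 RPM, 148 to 212), a ratio of 0.816 (0.627 to 1.06) that includes 1. A mouse-named entry of miR-199b-5p held 8 further reads in each library. The quotient of miR-199a-5p to miR-199b-5p reads, which needs no scaling, was 2.57 in control and 3.67 in STZ, an odds ratio of 1.43 (1.05 to 1.94). Summed, the 5p arms stood at 779 and 832 RPM, with a ratio of 1.07 (0.938 to 1.22).

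miR-214-3p (hsa-miR-214-3p), the kept arm of miR-214, was the member with reads in both libraries whose levels were farthest apart. It had 69 reads in control (136 RPM, 106 to 172) and 150 in STZ (212 RPM, 180 to 249), higher in the STZ library with intervals that did not overlap. The ratio was 1.56 (1.17 to 2.11) and the log2 fold 0.64, which is short of 2-fold. Of 29 other miRNAs with 150 to 300 reads over both libraries, 7 (24.1%) had a ratio of at least 1.5, so a difference of this size was common at this depth.

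Its opposite arm, miR-214-5p, had 12 reads in control (23.6 RPM, 12.2 to 41.2) and 0 in STZ, which allows up to 4.24 RPM at a limit of 3 reads. Against that limit its STZ level was at least 5.56-fold lower, with a log2 fold of -4.62 that depends on the pseudocount. The exact interval of the ratio had an upper bound of 0.259, that is, at least 3.86-fold lower. A loss of this kind was not rare for small counts. Of 43 other miRNAs with 9 to 16 control reads, 10 (23.3%) were at 0 in the STZ library. Both arms of miR-214 together had 81 and 150 reads, a ratio of 1.33 (1.01 to 1.77).

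Arm use differed between the genes, and of the 3 only miR-214 differed between the libraries beyond counting error. miR-21 was nearly all 5p, with 5178 reads to 0 in control and 6283 to 4 in STZ. Its minor arm made up 0.0349% of its reads over both libraries, against a median of 0.971% over 97 precursors with at least 100 reads and both arms listed. Of the 94 others among these, 29 had a still smaller minor arm share, among them precursors such as miR-1 with 0 minor arm reads in both libraries. Such precursors also count in the median. miR-199 kept a sizeable share on both arms, with the 5p arms at 21.2% of its reads in control and 22.5% in STZ, an odds ratio of 1.08 (0.930 to 1.25). miR-214 had 14.8% of its reads on the 5p arm in control and 0 of 150 in STZ, with an upper bound of 0.173 on the odds ratio. The interval of the arm odds ratio excluded 1 in 36 of 94 other precursors (38.3%), with a lower share of the minor arm in STZ for 16 (17%), as for miR-214, and a higher one for 20 (21.3%). Those of the 94 with 0 minor arm reads in both libraries could not exclude 1, so the share among the rest is above 38.3%. Among the 18 whose minor arm also had 5 to 19 reads, the interval excluded 1 in 8 (44.4%). Of these, 7 (38.9%) had a higher minor arm share in STZ and 1 (5.56%) a lower one. That one was miR-872, with 8 reads on its minor arm in control and 0 in STZ (chosen after its values were seen). Of the 94, 3 had at least 5 minor arm reads in control and 0 in STZ, and 8 had the reverse. Counting miR-199-3p as the sum of its names would bring the 5p share of miR-199 to 11.9% and 12.7%.

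**Figure D3:**
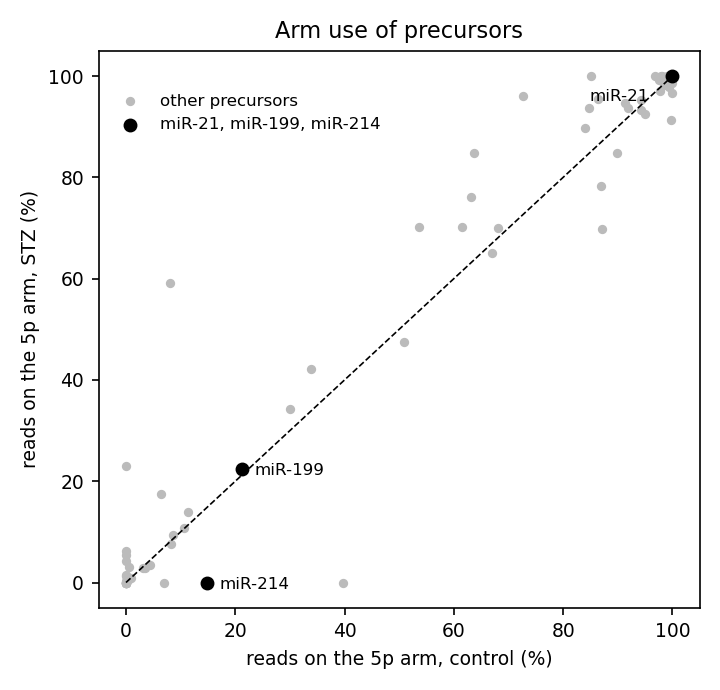
Share of a precursor's reads on the 5p arm in the control (x axis) and STZ library (y axis), in percent, for 97 precursors with at least 100 reads; the dashed line marks equal shares. miR-21 and miR-199 lie on or near the line, and miR-214 lies below it, at 14.8% and 0%.

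Within a library, members can be set against each other without any scaling. Per read of miR-21-5p, miR-199-3p, miR-199a-5p and miR-214-3p all had more reads in the STZ library than in the control. There was 1 read of miR-199-3p to 3.52 of miR-21-5p in control and to 3.10 in STZ, an odds ratio of 1.14 (1.05 to 1.23). The odds ratio was 1.34 (1.14 to 1.56) for miR-199a-5p and 1.79 (1.33 to 2.42) for miR-214-3p against miR-21-5p, while for miR-199b-5p it was 0.935 (0.717 to 1.22). miR-214-3p and miR-199-3p, which Dnm3os can give from 1 transcript, stood in different quotients in the libraries, though other genes also supply miR-199-3p. There were 21.3 reads of miR-199-3p to 1 of miR-214-3p in control and 13.5 in STZ, an odds ratio of 1.58 (1.17 to 2.15) for miR-214-3p. Against miR-199a-5p it was 1.34, with an interval (0.963 to 1.88) that includes 1. These comparisons share members and are not independent. Quotients of other miRNA pairs were not computed, so how common such differences are is not known. Of the 263 single miRNAs with 20 reads or more, only 34.6% had a ratio interval that included 1.

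**Figure D4:**
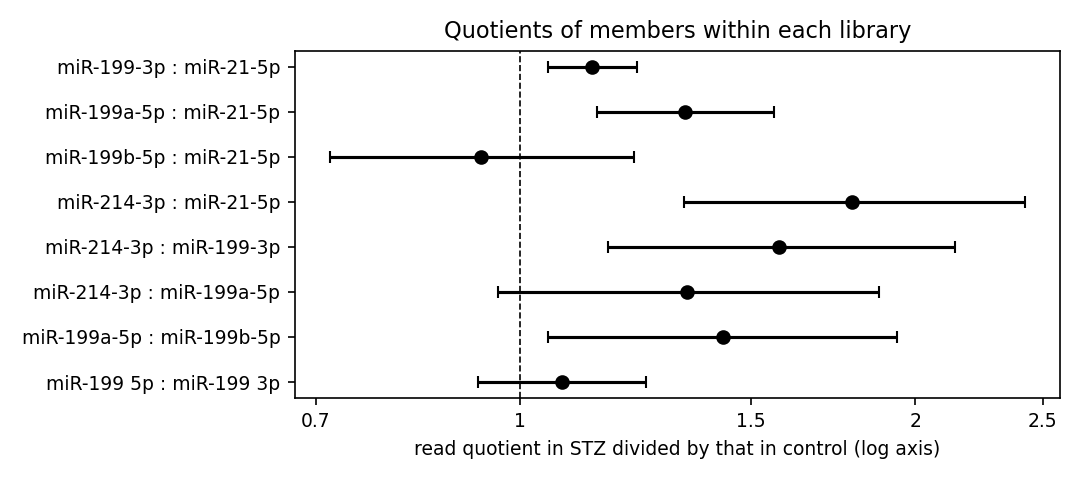
Quotient of the reads of 2 members in the STZ library divided by that in the control (log axis), with exact 95% intervals; the dashed line marks no difference. The values run from 0.935 for miR-199b-5p to 1.79 for miR-214-3p, both against miR-21-5p, and the intervals of 3 of the 8 quotients include 1.

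Other miRNAs tied to fibrosis lay on both sides of equality. Of 7 described as promoting fibrosis or fibroblast activation, a list that holds miR-21-5p, 6 averaged 10 RPM or more, 0 were 2-fold higher and 1 was lower, 2 had an interval above 1 and 4 below, and the median log2 fold was -0.18. The lower one was miR-503-5p, known for slowing the cell cycle, with 25 reads in control and 1 in STZ. miR-125b-5p, which was described in fibroblast activation, had 14790 and 25182 RPM, a ratio of 1.70. Of 9 described as restraining fibrosis, 0 were 2-fold apart, 5 had an interval above 1 and 3 below, and the median log2 fold was 0.07. The collagen-targeting miR-29a-3p had a ratio of 1.48 (1.43 to 1.54), miR-29b-3p one of 1.26 and miR-29c-3p one of 1.35, while that of miR-24-3p was 0.686. Over all 298 miRNAs 34.9% were 2-fold apart and the median log2 fold was -0.01, and of the 263 with 20 reads or more 31.9% had an interval above 1 and 33.5% one below.

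Markers of other cells stood in both libraries. The heart muscle miRNAs, led by miR-1-3p, summed to 280496 RPM in control and 315170 in STZ, with all 5 present except miR-208b-3p at 0 in the control. The higher sum in STZ came from miR-1-3p (209319 and 252647 RPM), and without it the other 4 summed to 71177 and 62523 RPM. Of these, miR-133a-3p (ratio 0.866) and miR-208a-3p (0.498) had intervals below 1. miR-499a-5p (1.07, interval 1.02 to 1.14) and miR-208b-3p (0 reads in control and 59 in STZ) had intervals above 1. Both smooth muscle miRNAs were present, with 61769 and 51920 RPM and 2 intervals below 1. All 4 endothelial miRNAs were present, at 67478 and 44498 RPM, with 4 intervals below 1. The 6 leukocyte miRNAs summed to 3416 and 2435 RPM, with 3 intervals below 1 and 1 above it (miR-155-5p, ratio 1.61). The 4 red cell miRNAs summed to 12924 and 9375 RPM, with 3 intervals below 1 and 0 above it. Most of that sum was miR-486-5p (9050 and 7332 RPM, ratio 0.810). The other 3 had lower ratios, 0.525 for miR-451a, 0.539 for miR-144-3p and 0.592 for miR-144-5p. The 3 liver miRNAs stood at 3119 and 870 RPM, and all 3 had intervals below 1 and were at least 2-fold lower. Over all miRNAs, 33.5% of 263 had an interval below 1 and 17.8% of 298 were 2-fold lower. The part of cell makeup in the values of miR-21, miR-199 and miR-214 was not tested, and miRNA entries do not show how pure the mitochondria were.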

How the data were processed

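Per the labels' protocols, adapters were joined to both ends of total RNA before cDNA synthesis, PCR and gel purification. The submitters' processing notes name GRCm39. Aligner, miRNA reference, trimming and mismatches: not given in the sources used here. Deposited values, per the file headers, are a signal that is never negative, called TPM in the control file and scaled by the authors to 1000000 reads over the listed small RNAs. An entry with no name repeats the sum of those above it (96.5% and 96.6% of the totals) and was left out, and 167 unnamed loci were not counted as miRNAs. Of the signal, 99.2% and 99.3% stood under human names, so sequences were taken from the mouse RefSeq table by name.

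Values were whole multiples of 1 read for 100.0% of entries in each library, within 0.001 of a read, which gave the reads used here. Entries under human and mouse names of a mature miRNA were taken as the higher one. A call was a 2-fold difference of log2(RPM + 1), with a pseudocount of 1 RPM, which understates the change of low miRNAs, and a mean of at least 10 RPM. The design planned for no test, and edgeR's quasi-likelihood test could not be fitted on the recovered reads for want of replicates. Ratios have exact conditional binomial (Clopper-Pearson) 95% intervals, levels exact Poisson intervals, shares Wilson intervals, and quotients exact intervals of the odds ratio. Folds against 0 used a limit of 3 reads per library.

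Named miRNAs are the members, the listed fibrosis and marker miRNAs, the 3 others nearest in ratio to each member with at least 1000 reads, and neighbours by level. Neighbours and the read windows used for background shares were chosen after values were seen. Members and lists were chosen with earlier results of these data known. Alternatives changed the scaling (TMM of edgeR 4.0.16, median of ratios of DESeq2 1.42.0, totals without the 10 most abundant), pseudocount, minimum, fold, entries and depth. Python 3.11.15 with scipy 1.17.1 and R 4.3.3 were used. Intervals and folds were tested on simulated Poisson reads, for which such intervals hold by construction. The simulation had no PCR copies and no spread between libraries, so it does not speak to those.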

Additional observations from a re-analysis of the deposited data

How the results depend on the processing

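No paired analysis was possible because only 1 library represents a group, and for the same reason no library could be left out. The log2 folds of the members stayed inside their exact intervals in all 56 values recomputed under other scalings, pseudocounts, entry sums and depth. This was partly fixed in advance. The intervals of miR-21-3p and miR-214-5p have no outer bound, and a ratio without pseudocount lies inside its own interval. The log2 fold of miR-21-5p ran from -0.20 to -0.19, of miR-199a-5p from 0.17 to 0.23, of miR-199b-5p from -0.33 to -0.28 and of miR-214-3p from 0.55 to 0.65. The sign changed once, for miR-199-3p, which was 0.005 with the STZ library thinned to the control depth. The log2 fold of miR-214-5p, which has no STZ reads, ran from -7.89 to -2.52 with the pseudocount. That of miR-21-3p, which has no control reads, ran from 1.09 to 5.85. The arm odds ratio of miR-199 ran from 1.07 to 1.18 over the ways of counting its entries. Scaling moved log2 ratios by 0.009 at most. Counts of 2-fold differences depended on the minimum and the fold, by construction. With no minimum they were 2 of 7 members, 236 of all 771 miRNAs and 2 of 16 in the fibrosis lists. At a mean of 100 RPM they were 0 of 5, 13 of 147 and 0 of 14. At 1.5-fold they were 2 of 6, 159 of 298 and 4 of 15. By a 2-fold ratio of reads with an interval excluding 1 and at least 20 reads, 0 of 5 members were apart, since miR-214-5p has too few reads, with 73 of 263 over all miRNAs and 1 of 15 in the fibrosis lists. Summing the miR-199-3p names, and a log2 ratio without pseudocount, were added after seeing the data.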
